A study of Mus musculus with 7 samples.

Results

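The mitochondrial dynamics and mitophagy genes comprise 10 genes that set the shape of the mitochondrial network or mark mitochondria for removal: Mfn1, Mfn2, Opa1, Dnm1l, Fis1, Mff, Pink1, Bnip3, Bnip3l and Fundc1. They were taken by gene symbol from a table of 21861 rows of read counts, where each had 1 row, and all 10 passed the filter on low counts that left 15075 genes to test. The RNA was that of retinal pigment epithelium (RPE), a pigmented sheet of cells behind the retina that nourishes the photoreceptors, in aged mice. Every animal had been treated 12 weeks earlier with an adeno-associated virus (AAV). In the control group, AAV-GFP, the vector carried green fluorescent protein and gave 3 libraries. In the treated group, AAV-GSTA4, it carried GSTA4, a glutathione transferase that conjugates reactive lipid aldehydes, and gave 4 libraries. The promoter that drove the transgenes, the strain, sex and exact age of the mice and any pooling of eyes are not given in the sources used here. No uninjected or young group was analysed here, so a level common to both vectors cannot be set against untreated tissue.

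Mitochondria fuse and divide continuously. The mitofusins join outer membranes, OPA1 joins inner membranes and shapes the cristae, and the dynamin DRP1, which Dnm1l encodes, is recruited by adaptors to cut the organelle. Damaged pieces are removed by mitophagy, either through ubiquitin marks that the kinase PINK1 sets off or through receptors in the outer membrane that bind the autophagosome directly. The RPE is known for a heavy reliance on mitochondrial oxidation of fuels.

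The libraries held 15329181 to 28998964 counts. The human GSTA4 row had 1 to 3 counts in AAV-GFP and 45 to 5239 in AAV-GSTA4. The GFP row ran from 99 to 3970 counts in AAV-GFP and from 7 to 163 in AAV-GSTA4, so it overlapped between the groups. AAV-GFP replicate 3 stood apart, with a mean correlation to the other libraries of 0.838 against 0.910 to 0.926 for the other 6. RPE marker genes (12, among them Rpe65 and Best1) took 3.05% to 6.86% of counts in AAV-GFP and 5.45% to 9.51% in AAV-GSTA4, with none of them at 0 in any library. Rod photoreceptor markers (15 genes) took 1.77% to 6.15% in AAV-GFP and 0.869% to 1.57% in AAV-GSTA4, without overlap. Lens markers (9 genes) took 0.446% to 1.51% in AAV-GFP and 0.439% to 12.0% in AAV-GSTA4, where replicate 2 was the highest. Transcripts of the Y chromosome were present in 1 of the 3 AAV-GFP libraries (replicate 1, Ddx3y at 319.5 CPM) and in 2 of the 4 AAV-GSTA4 libraries (replicates 3 and 4, at 281 and 196 CPM), with Ddx3y at 2.21 CPM or less in the other 4. In such bulk tissue, fewer cells of a type and less RNA per cell cannot be told apart.

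Of the 10 genes, Pink1 differed most between the groups. Its mean level in AAV-GSTA4 was 0.476 of that in AAV-GFP in the fitted model, and every AAV-GSTA4 library lay below every AAV-GFP library. Bnip3l was 1.46-fold and Opa1 1.17-fold higher in AAV-GSTA4, Mfn1 was 1.41-fold lower, and the log2 fold changes of the 3 fission genes lay between -0.043 and 0.21. Of these differences, 0 passed the adjusted threshold of 0.05 by edgeR (quasi-likelihood test, Benjamini-Hochberg adjusted over all genes), and across the transcriptome 0 of 15075 genes did (0%). At an unadjusted p under 0.05 there was 1 of the 10 genes, Pink1, on the lower side, where 6.63% of all genes tested lay, and 0 on the higher side, where 5.27% lay. By DESeq2, 0 of the 10 passed its adjusted threshold, against 1.34% of genes. With limma-voom and sample quality weights 1 did, Pink1, against 0.968% of genes.

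Over the 10 genes the differences were balanced in sign in the edgeR fit above. The median log2 fold change was -0.02, beside -0.07 over all genes tested, with 5 higher and 5 lower. Levels are given as CPM, the counts relative to the library total after trimmed-mean (TMM) scaling. Over the 10 genes CPM summed to 1225 to 1837 in AAV-GFP and 1531 to 1885 in AAV-GSTA4, so the groups overlapped. With library totals in place of TMM scaling, only Bnip3l of the 10 had a positive log2 fold change. The median over all genes was then -0.37.

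Levels were compared between genes as CPM per kilobase of merged exons, using the GENCODE M21 gene models. Over all 7 libraries Fis1 stood highest, at 119 ± 28.0 CPM per kb (SD). Bnip3l at 94.9 ± 25.8 and Fundc1 at 91.4 ± 32.6 followed, and Bnip3 was at 66.7 ± 14.5. A middle tier held Dnm1l at 29.9 ± 6.58, Mfn2 at 29.0 ± 5.23, Pink1 at 23.3 ± 11.4 and Mff at 22.7 ± 5.28 CPM per kb. Pink1 was at 33.2 CPM per kb in AAV-GFP, the highest of this tier there, and at 15.8 in AAV-GSTA4, the lowest of it. Opa1 at 8.13 ± 0.875 and Mfn1 at 3.50 ± 1.24 were the lowest. Within the upper tier and within the middle tier neighbours differed by less than the larger of their SDs. The larger steps were 3 in number. Bnip3 lay above Dnm1l, Mff above Opa1 and Opa1 above Mfn1 in all 7 libraries. Per kilobase of merged exons, the mRNAs of the outer-membrane mitophagy receptors thus lay above those of the fusion GTPases in these preparations. This order depends on the division by length. In CPM, Mfn2 averaged 146 against 169 for Bnip3 in AAV-GFP, and 154 against 137 in AAV-GSTA4.

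**Figure D1:**
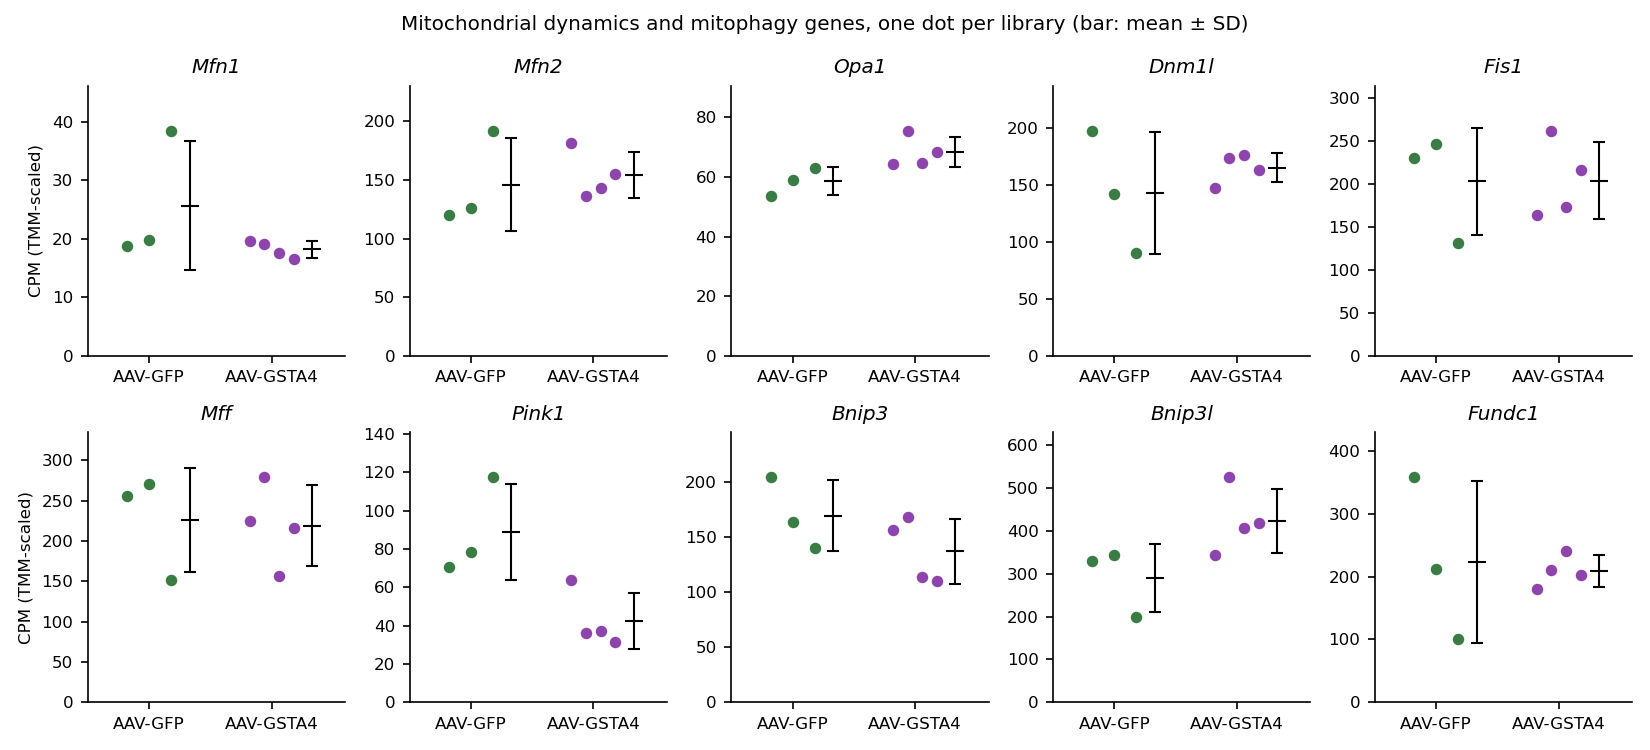
TMM-scaled CPM of each of the 10 genes (vertical axis, from 0, with its own scale per panel) in the 3 AAV-GFP and 4 AAV-GSTA4 libraries, 1 dot per library, with the group mean and SD as a bar. Pink1 lies between 31.6 and 63.7 CPM in AAV-GSTA4, below all AAV-GFP libraries, while Opa1 is the only gene with every AAV-GSTA4 library above every AAV-GFP library.

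PINK1 is the kinase that accumulates on depolarised mitochondria and phosphorylates ubiquitin, which starts the ubiquitin route of mitophagy. Its gene lies on chromosome 4 (GRCm38, 138313409 to 138326307, minus strand). Pink1 was at 70.5, 78.6 and 117 CPM in the AAV-GFP libraries (replicates in order, here and throughout) and at 63.7, 36.3, 37.5 and 31.6 CPM in the AAV-GSTA4 libraries. The groups did not overlap, but AAV-GSTA4 replicate 1 sat nearer to the lowest control than to the other treated libraries. AAV-GSTA4 replicate 3, which carried only 45 human GSTA4 counts, had a Pink1 level within the range of the other treated libraries. The means were 88.8 ± 25.0 CPM (SD, n = 3) and 42.3 ± 14.5 CPM (SD, n = 4). In log2 units the fit gave -1.07 ± 0.29 (SE; edgeR unadjusted p = 0.00480, adjusted p = 0.363). It was lower than that of all but 10.2% of genes tested. Groups that did not overlap, with AAV-GSTA4 lower, were found for 5.61% of all genes tested and for 1 of the 10 genes, and in the other direction for 6.44% of all genes and 1 of the 10.

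The Pink1 level and the rod marker share ranked the libraries alike, and how many of all genes tested do so was not counted. From high to low, the 7 libraries stood in the same order on both measures, from AAV-GFP replicate 3 (6.15% rod counts) through AAV-GFP replicate 1 (1.77%) and AAV-GSTA4 replicate 1 (1.57%) to AAV-GSTA4 replicate 4 (0.869%). With the log2 rod share as a covariate the Pink1 log2 fold change was -0.32 ± 0.33 (SE), with an unadjusted p of 0.348 and an adjusted p of 0.700 in edgeR's test. Without AAV-GFP replicate 3, the library richest in rod counts, it was -0.82 with an unadjusted p of 0.0143. Cone markers (9 genes, 1 of them at 0 in AAV-GSTA4 replicate 1) also lay higher in AAV-GFP, at 0.0344% to 0.105% of counts against 0.0206% to 0.0340%. The rod shares of the groups did not overlap, so the parts of rod share and treatment in the Pink1 difference cannot be told apart. The same limit applies to every value given below with the rod share as a covariate.

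**Figure D2:**
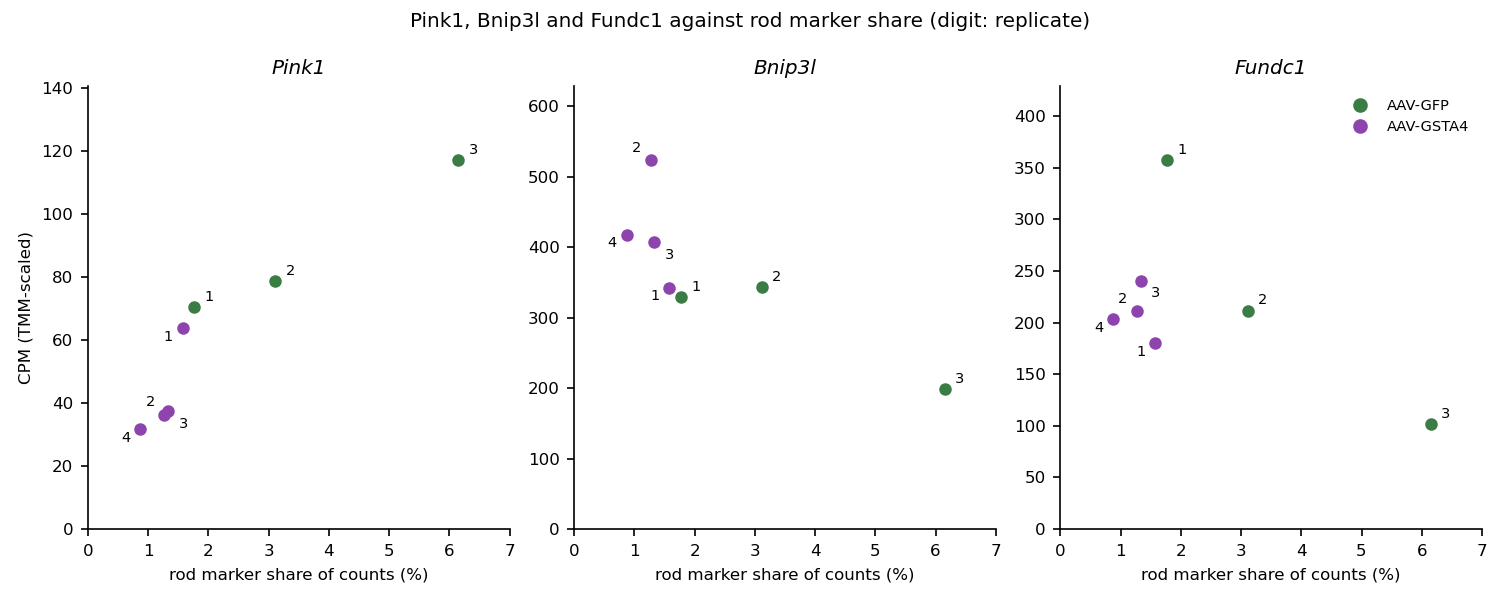
TMM-scaled CPM of Pink1, Bnip3l and Fundc1 (vertical axes, from 0) against the percentage of a library's counts on 15 rod marker genes (horizontal axis), 1 dot per library with its replicate number. Pink1 runs from 31.6 CPM at a rod share of 0.869% to 117 CPM at 6.15%, while Bnip3l and Fundc1 are at their lowest, 199 and 101 CPM, at the highest rod share.

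The 250 bases upstream of the RefSeq start (GRCm38.p6) are shown for Pink1, the gene with the largest difference, for Opa1, the one gene higher in every treated library, and for Bnip3, the receptor gene known as a target of hypoxia-inducible factor. The search took in 5 motifs on both strands: the hypoxia response core ACGTG, the E-box CACGTG, which contains it, the CRX and OTX core TAATCC, the cAMP response core TGACGTCA and the nuclear respiratory factor 1 core CGCATGCG. Capitals mark a match. Each is written 5′ to 3′ along the gene's own strand.
Pink1, chr4:138326297-138326546, minus strand: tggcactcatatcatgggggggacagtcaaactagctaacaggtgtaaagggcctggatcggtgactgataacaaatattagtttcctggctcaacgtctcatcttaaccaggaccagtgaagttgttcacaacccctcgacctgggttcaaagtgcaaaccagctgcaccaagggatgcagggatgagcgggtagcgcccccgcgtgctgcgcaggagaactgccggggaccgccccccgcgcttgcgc
Opa1, chr16:29579084-29579333, plus strand: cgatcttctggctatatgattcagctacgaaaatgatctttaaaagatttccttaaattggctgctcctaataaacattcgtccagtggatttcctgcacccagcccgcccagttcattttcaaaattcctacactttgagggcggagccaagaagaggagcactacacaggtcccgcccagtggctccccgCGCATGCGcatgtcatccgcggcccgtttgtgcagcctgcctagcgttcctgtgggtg
Bnip3, chr7:138909507-138909756, minus strand: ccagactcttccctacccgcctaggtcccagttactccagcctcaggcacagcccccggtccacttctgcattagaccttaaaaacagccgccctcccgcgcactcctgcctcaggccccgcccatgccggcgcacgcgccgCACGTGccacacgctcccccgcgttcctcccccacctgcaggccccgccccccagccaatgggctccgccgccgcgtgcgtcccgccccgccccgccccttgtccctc

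The Bnip3 window holds CACGTG from 108 bases before the start, which is an E-box and a hypoxia response core on each strand. The Opa1 window holds the nuclear respiratory factor 1 core from 58 bases before the start, and the Pink1 window holds none of the 5 motifs. Over all 32851 RefSeq windows of this length, 16.6% held ACGTG, 6.02% CACGTG, 6.25% TAATCC, 1.55% TGACGTCA and 1.55% CGCATGCG. RefSeq windows matched 9 of the 10 genes (14 windows, since some have several starts), with Bnip3l as the other. Among the 14 windows, 2 held ACGTG, and TAATCC and CGCATGCG each occurred in 1.

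The 3 fusion genes all had an unadjusted p above 0.05 in the edgeR fit with TMM scaling. OPA1 is the dynamin-like GTPase of the inner membrane. Opa1 (chromosome 16, 29579334 to 29654884, plus strand) was at 53.5, 58.9 and 62.9 CPM in AAV-GFP and at 64.5, 75.4, 64.7 and 68.3 CPM in AAV-GSTA4. The groups touched closely without overlapping. The means were 58.4 ± 4.69 CPM (SD, n = 3) and 68.2 ± 5.08 CPM (SD, n = 4). In log2 units AAV-GSTA4 stood at 0.22 ± 0.18 (SE) relative to AAV-GFP (edgeR adjusted p = 0.645). Opa1 was also the steadiest of the 10 genes: the SD of its log2 CPM over the 7 libraries was 0.16, and only 1.57% of genes tested varied less. With library totals in place of TMM scaling its log2 fold change turned to -0.091. That change of scaling moved the median of all genes from -0.07 to -0.37, and relative to that median Opa1 stood at 0.29 and 0.28.

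The mitofusins MFN1 and MFN2 tether and fuse outer membranes, and MFN2 also links mitochondria to the endoplasmic reticulum. Mfn1 (chromosome 3, 32529465 to 32579239, plus strand) was at 18.8, 19.9 and 38.4 CPM in AAV-GFP and at 19.6, 19.2, 17.5 and 16.5 CPM in AAV-GSTA4. AAV-GFP replicate 3 stood alone, and the other 6 libraries lay within 16.5 to 19.9 CPM. AAV-GSTA4 over AAV-GFP gave -0.50 ± 0.29 (SE) in log2 units, at an edgeR adjusted p of 0.512, and it was -0.084 without that library. Adding the rod share turned it to 0.31. With library totals it was -0.87, with an unadjusted p of 0.0439 in edgeR's test. Relative to the median of all genes it stood at -0.50 with library totals and -0.43 with TMM scaling.

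Mfn2 (chromosome 4, 147873599 to 147904704, minus strand) was at 120.5, 126 and 192 CPM in AAV-GFP and at 181, 137, 143 and 155 CPM in AAV-GSTA4. Here too the highest value was that of AAV-GFP replicate 3, above all treated libraries, while the other 2 controls were the lowest. This was a fitted log2 fold change of 0.08 ± 0.24 (SE; edgeR adjusted p = 0.921). It was -0.27 with library totals and 0.57 with the rod share as a covariate.

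Because both mitofusin counts come from the same library, their ratio does not depend on scaling. The log2 ratio of Mfn2 over Mfn1 counts was 2.68, 2.66 and 2.32 in AAV-GFP and 3.21, 2.83, 3.03 and 3.23 in AAV-GSTA4. All treated libraries lay above all controls. The means differed by 0.52, and the exact permutation test over the 35 relabellings gave p = 0.0571 (two-sided), or 0.114 adjusted over the 4 ratios tested. The smallest p that 3 against 4 libraries allow is 0.0286. Without AAV-GFP replicate 3 the difference was 0.40, with p = 0.133 in the exact permutation test. The rod shares of the groups did not overlap, so the parts of rod share and treatment in this ratio cannot be told apart.

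The fission genes did not separate the groups. Dnm1l encodes the DRP1 dynamin that constricts mitochondria (chromosome 16, 16312230 to 16358959, minus strand). It was at 197, 142 and 90.3 CPM in AAV-GFP and at 147, 173, 176 and 163 CPM in AAV-GSTA4. The controls enclosed all treated libraries. In log2 units AAV-GSTA4 stood at 0.21 ± 0.27 (SE) relative to AAV-GFP (edgeR adjusted p = 0.787). It was -0.040 with library totals, -0.033 without AAV-GFP replicate 3 and -0.45 with the rod share as a covariate. The antisense gene Gm49521 overlaps 243 of its exonic bases.

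FIS1 and MFF are outer-membrane proteins that bind DRP1, with MFF the main adaptor in mammals. Fis1 (chromosome 5, 136953275 to 136966234, plus strand) was at 231, 247 and 132 CPM in AAV-GFP and at 164, 262, 174 and 217 CPM in AAV-GSTA4. The groups overlapped over most of their range. AAV-GSTA4 over AAV-GFP gave 0.01 ± 0.29 (SE) in log2 units, at an edgeR adjusted p of 0.997. It was -0.25 with library totals and -0.22 without AAV-GFP replicate 3.

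Mff (chromosome 1, 82724890 to 82752394, plus strand) was at 255, 270.4 and 151 CPM in AAV-GFP and at 225, 279, 157 and 215 CPM in AAV-GSTA4. AAV-GFP replicate 3 and AAV-GSTA4 replicate 3 were the low libraries of their groups. The antisense gene C430014B12Rik overlaps 195 exonic bases of Mff. This was a fitted log2 fold change of -0.04 ± 0.29 (SE; edgeR adjusted p = 0.969). The log2 ratio of Fis1 over Mff spanned only -0.20 to -0.13 in AAV-GFP and ran from -0.46 to 0.15 in AAV-GSTA4, with a difference of means of 0.06 and an exact permutation p of 0.714 (0.914 adjusted over the 4 ratios). The ratio of Dnm1l over Opa1, a cutting against a joining GTPase, differed by 0.05 on the log2 scale (exact permutation p = 0.914, adjusted 0.914). It was -0.30 without AAV-GFP replicate 3.

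None of the 3 receptor genes was under an unadjusted 0.05 in the edgeR fit with TMM scaling. BNIP3L, also called NIX, is the receptor that clears mitochondria from maturing red blood cells. Bnip3l (chromosome 14, 66985239 to 67008877, minus strand) was at 329, 344 and 199 CPM in AAV-GFP and at 343, 524, 407 and 418 CPM in AAV-GSTA4. Only AAV-GSTA4 replicate 1 lay within the range of the controls, and the other 3 treated libraries lay above it. The means were 290.5 ± 79.6 CPM (SD, n = 3) and 423 ± 75.2 CPM (SD, n = 4). That made Bnip3l higher by 0.54 ± 0.28 (SE) in log2 units. The unadjusted p was 0.0806 and the adjusted p 0.467 in edgeR's test. With library totals it was 0.28 (adjusted p = 0.489 in edgeR's test), without AAV-GFP replicate 3 it was 0.33, and with the rod share as a covariate it was 0.04. Relative to the median of all genes it stood at 0.61 with TMM scaling and 0.65 with library totals.

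The 7 erythroid markers, which include the haemoglobin genes, took 0.0594% to 0.109% of counts in AAV-GFP and 0.0383% to 0.215% in AAV-GSTA4, with 1 gene at 0 in AAV-GFP replicate 1. AAV-GSTA4 replicate 2, the library with the most Bnip3l, had the smallest erythroid share of all 7 and the largest lens marker share, 12.0% of counts against 0.439% to 2.74% in the other 6. Without it the Bnip3l log2 fold change was 0.43. AAV-GSTA4 replicate 2 was also the highest library for Opa1, Fis1 and Mff. The parts of erythroid and lens RNA in these levels and in that of Bnip3l were not tested. A processed pseudogene copy, Bnip3l-ps, is annotated in GENCODE M21 and has no row in the table, so reads that both could take depend on a multi-mapping rule that is not given in the sources used here.

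BNIP3 is the hypoxia-inducible relative of BNIP3L. Bnip3 (chromosome 7, 138890836 to 138909519, minus strand) was at 204, 164 and 140.2 CPM in AAV-GFP and at 156, 168, 114 and 110.5 CPM in AAV-GSTA4. AAV-GSTA4 replicates 3 and 4 lay below every control and the other 2 lay among them. In log2 units the fit gave -0.30 ± 0.24 (SE; edgeR unadjusted p = 0.243, adjusted p = 0.637). With library totals it was -0.57 with an unadjusted p of 0.0265, and -0.21 relative to the median of all genes, against -0.23 with TMM scaling. An antisense gene, Gm45507, overlaps 504 exonic bases of Bnip3, and the strand setting of the counting is not given in the sources used here.

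Set against each other within a library, the pair separated the groups. The log2 ratio of Bnip3 over Bnip3l was -0.69, -1.07 and -0.50 in AAV-GFP and -1.13, -1.64, -1.84 and -1.92 in AAV-GSTA4. Every treated library lay below every control, although AAV-GSTA4 replicate 1 and AAV-GFP replicate 2 were close. The means differed by -0.88, with p = 0.0571 in the exact permutation test and 0.114 adjusted over the 4 ratios. In the edgeR fit with the rod share as a covariate, Bnip3 was at -0.49 and Bnip3l at 0.04. The rod shares of the groups did not overlap, so the parts of rod share and treatment in this ratio cannot be told apart.

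FUNDC1 is a further outer-membrane receptor linked to mitophagy in hypoxia. Fundc1 (X chromosome, 17556564 to 17572325, minus strand) was at 357, 211 and 101 CPM in AAV-GFP and at 179.9, 211, 240.5 and 203 CPM in AAV-GSTA4. The controls were widely spread and held all treated libraries between them. In log2 units AAV-GSTA4 stood at -0.10 ± 0.37 (SE) relative to AAV-GFP (edgeR adjusted p = 0.937). It was 0.42 without AAV-GFP replicate 1 and -0.44 without AAV-GFP replicate 3. With the rod share as a covariate it was -1.08 ± 0.32 (SE), with an unadjusted p of 0.00800 and an adjusted p of 0.297 in edgeR's test. Fundc1 was the only one of the 10 genes under 0.05 unadjusted in that fit, beside 12.8% of all genes. Since the rod shares of the groups did not overlap, rod share and treatment cannot be told apart in that fit either.

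**Figure D3:**
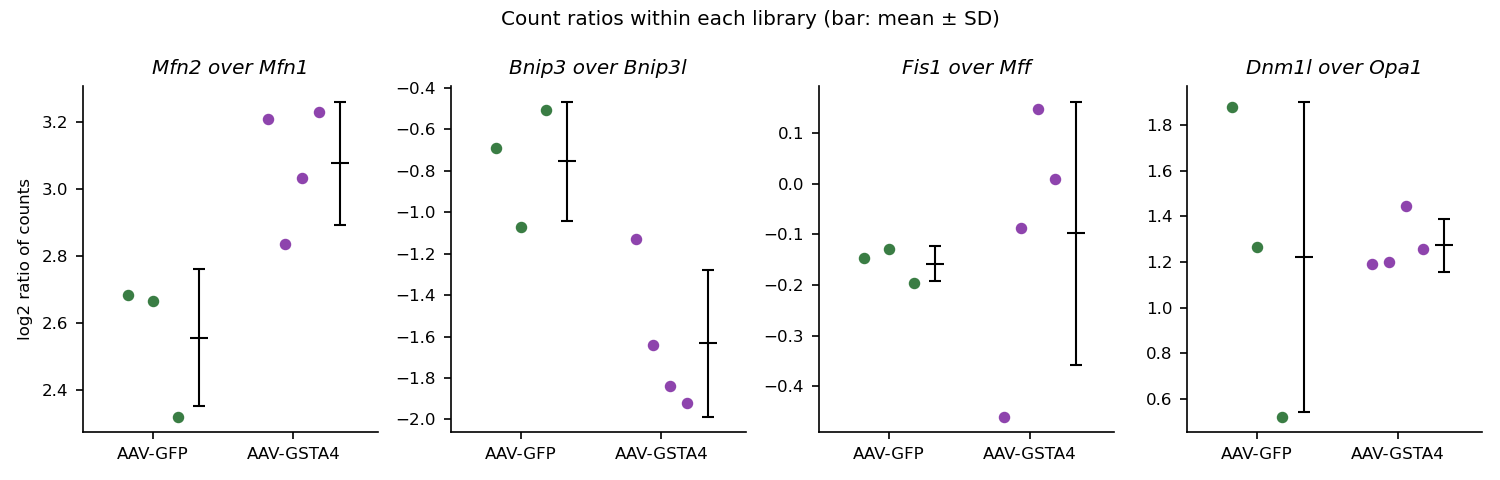
Log2 ratio of read counts of 2 genes within the same library (vertical axis), 1 dot per library, with the group mean and SD as a bar, for 3 AAV-GFP and 4 AAV-GSTA4 libraries. Mfn2 over Mfn1 is higher and Bnip3 over Bnip3l lower in every AAV-GSTA4 library, by 0.52 and -0.88 on average, and the other ratios overlap.

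Variation among libraries differed between the 10 genes. The SD of log2 CPM over the 7 libraries was 0.25 for Mfn2, 0.32 for Bnip3, 0.36 for Mff and for Fis1, 0.37 for Dnm1l, 0.41 for Mfn1, 0.43 for Bnip3l, 0.54 for Fundc1 and 0.70 for Pink1, beside a median of 0.53 over all genes tested. Pink1 and Fundc1 were the only ones of the 10 above that median.

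Partners of these genes were described from wider lists. The wider dynamics list held 35 genes, of which 34 could be tested. By edgeR, 0 had an adjusted p under 0.05, while 2 were higher and 3 lower at an unadjusted p under 0.05, beside 5.27% and 6.63% of all genes (median log2 fold change 0.10). The 5 became 2 without AAV-GSTA4 replicate 3 and 3 without AAV-GSTA4 replicate 4, where 6.88% and 8.47% of all genes lay under 0.05. Oma1, the inner-membrane protease that cleaves OPA1 under stress, was at 21.6, 20.1 and 19.3 CPM in AAV-GFP and at 30.8, 33.1, 28.9 and 34.5 CPM in AAV-GSTA4. The replicates were tight and the groups well apart, at 0.65 ± 0.20 (SE) in log2 units (edgeR unadjusted p = 0.00951, adjusted p = 0.363). Every treated library lay above every control for 3 of the 34 genes tested in this list, beside 6.44% of all genes tested. Oma1 stood at 0.49 beside the rod share and at 0.36 with library totals. Mief2, which encodes the DRP1 receptor MiD49, had a log2 fold change of 0.69 ± 0.26 (SE), with 9.22 to 12.4 CPM in AAV-GFP and 14.6 to 18.9 CPM in AAV-GSTA4.

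On the lower side stood the m-AAA protease subunits Afg3l2 and Spg7 and the transport GTPase Rhot1. Afg3l2 was at 18.8, 18.3 and 38.2 CPM in AAV-GFP and at 14.7, 11.7, 8.04 and 10.5 CPM in AAV-GSTA4, a log2 fold change of -1.16 ± 0.34 (SE). Rhot1, whose product Miro1 couples mitochondria to motor proteins, was at 174, 191 and 276 CPM and at 154, 141, 129 and 126 CPM, a log2 fold change of -0.64 ± 0.23 (SE). As with Pink1, the highest value of each was in AAV-GFP replicate 3, and no treated library reached a control. Such a separation on the lower side was found for 2 of the 34 genes tested in this list, beside 5.61% of all genes tested. Fitted beside the rod share, Afg3l2 was at -0.33 and Rhot1 at -0.11. Spg7 had a log2 fold change of -0.82 ± 0.36 (SE) with overlapping groups, which turned to 0.40 with that covariate. Without AAV-GFP replicate 3 the log2 fold changes were -0.72 for Afg3l2, -0.41 for Rhot1 and -0.23 for Spg7.

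In the wider mitophagy list all 25 genes could be tested. By edgeR, 0 had an adjusted p under 0.05, and 3 were higher and 0 lower at an unadjusted p under 0.05, beside 5.27% and 6.63% of all genes (median log2 fold change 0.073). With library totals 1 gene was under 0.05 unadjusted, beside 15.9% of all genes. With the rod share as a covariate 5 were, none of them among those 3, beside 12.8% of all genes. Without AAV-GSTA4 replicate 3 or without AAV-GSTA4 replicate 4 none was, beside 6.88% and 8.47% of all genes. The count was 1 without AAV-GFP replicate 2 and 1 without AAV-GSTA4 replicate 1, beside 10.5% and 11.6%.

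Vcp, the ATPase that extracts ubiquitin-tagged proteins from the outer membrane, was at 318, 345 and 336 CPM in AAV-GFP and at 485, 427, 518 and 466 CPM in AAV-GSTA4. Usp8, a deubiquitinase, was at 84.2, 83.5 and 79.0 CPM and at 101, 115, 118 and 110.6 CPM. Neither overlapped between the groups, with log2 fold changes of 0.51 ± 0.22 and 0.44 ± 0.18 (SE) and adjusted p-values of 0.402 and 0.399 in edgeR's test. Every treated library lay above every control for 2 of the 25 genes of this list, beside 6.44% of all genes tested. Nlrx1, a mitochondrial NOD-like receptor described as a mitophagy receptor, had a log2 fold change of 0.86 ± 0.34 (SE) with overlapping groups. With library totals the log2 fold changes of Vcp and Usp8 were 0.20 and 0.14.

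**Figure D4:**
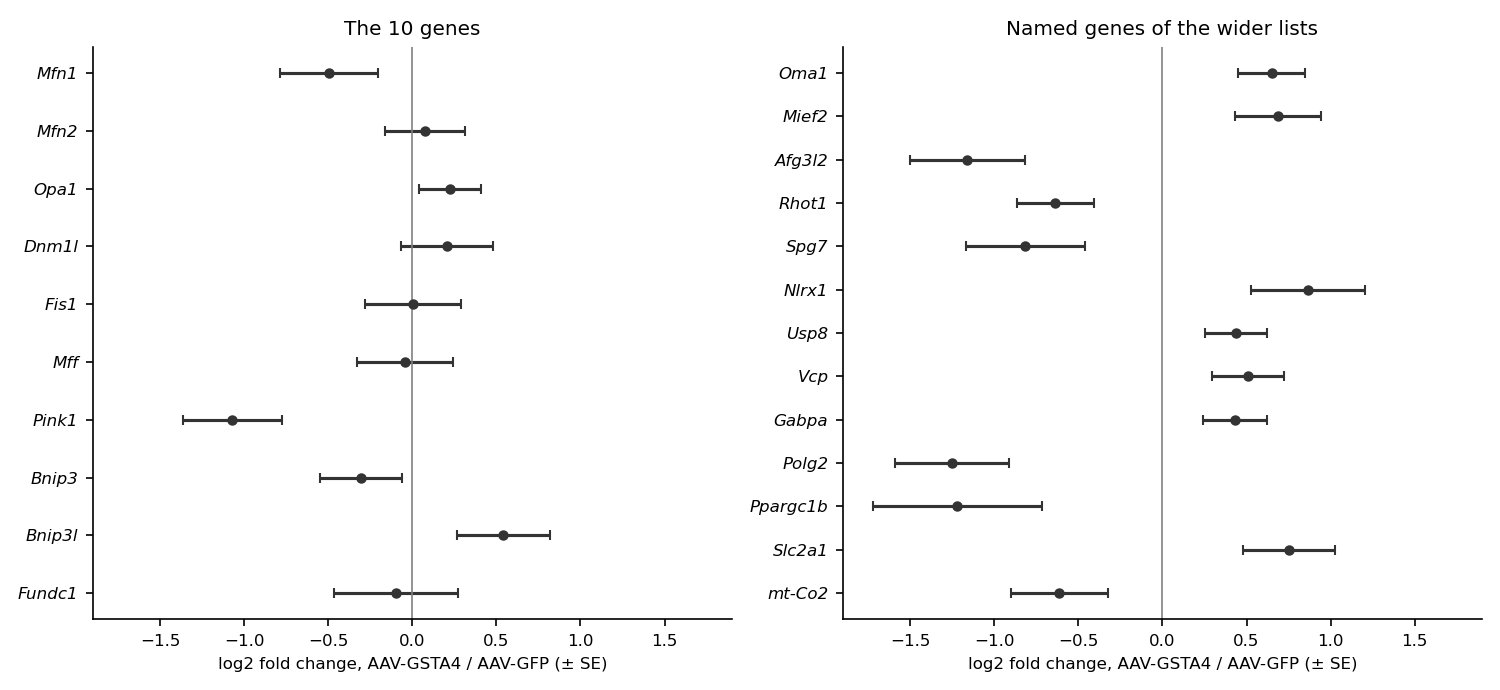
Log2 fold change of AAV-GSTA4 over AAV-GFP with its standard error (horizontal axes) for the 10 genes (left) and for the genes named from the wider lists (right), from edgeR with TMM scaling. Pink1 at -1.07 is the farthest from 0 on the left, and Polg2 at -1.25 on the right, and none of the genes shown passed the adjusted threshold in that fit.

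Genes of mitochondrial biogenesis, 14 in the list, gave 0 at an adjusted p under 0.05 by edgeR (median log2 fold change -0.053). At an unadjusted p under 0.05, 1 was higher and 2 lower, beside 5.27% and 6.63% of all genes. Gabpa, a subunit of nuclear respiratory factor 2, had a log2 fold change of 0.43 ± 0.19 (SE). Polg2, the accessory subunit of the mitochondrial DNA polymerase, had one of -1.25 ± 0.34 (SE), and the coactivator gene Ppargc1b one of -1.22 ± 0.50 (SE) with overlapping groups. Without AAV-GFP replicate 3 they were -0.75 for Polg2 and -0.57 for Ppargc1b. Polg2 was at -0.23 and Ppargc1b at -0.044 once the rod share was a covariate.

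The list of 20 hypoxia-inducible factor targets, which bears on Bnip3, held 0 genes at an adjusted p under 0.05 by edgeR. The median log2 fold change was -0.095, with 7 genes higher and 13 lower. At an unadjusted p under 0.05, 1 was higher and 0 lower, beside 5.27% and 6.63% of all genes. That gene was Slc2a1, the glucose transporter GLUT1, at 453, 515 and 377 CPM in AAV-GFP and at 882, 596, 911 and 631 CPM in AAV-GSTA4 (log2 fold change 0.75 ± 0.27, SE). It was higher in every treated library, as were 6.44% of all genes tested, whereas Bnip3 was not.

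All 13 mitochondrially encoded protein genes had negative log2 fold changes, with a median of -0.44, and none was under an unadjusted 0.05 in the edgeR fit with TMM scaling. They took 4.17%, 3.96% and 1.85% of counts in AAV-GFP and 1.89% to 2.39% in AAV-GSTA4. The groups overlapped only through AAV-GFP replicate 3, and AAV-GFP replicates 1 and 2 lay above every treated library. The one with the smallest p-value was mt-Co2, a subunit of cytochrome oxidase, with a log2 fold change of -0.61 ± 0.29 (SE) and an adjusted p of 0.434 in edgeR's test. Its unadjusted p was 0.0605 there, 0.00519 with library totals, 0.00129 with limma-voom, 0.00346 without AAV-GFP replicate 3 and 0.0430 without AAV-GSTA4 replicate 3. Without AAV-GFP replicate 2 its log2 fold change was -0.33.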

How the data were processed

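The authors deposited raw read counts in a table with genes as rows and the 7 libraries as columns. The submitters' processing notes name STAR 2.7.1a, featureCounts 1.6.2 and the builds GRCm38 (mm10) and GRCh38 (hg38) without a role; the annotation release, strand setting and multi-mapping rule are not given in the sources used here. Full-length cDNA came from a low-input poly(A) kit, per the labels' protocols, with no molecular identifiers mentioned. Columns were matched by library name, and replicates are numbered as in the sample titles. The labels do not say whether libraries came from separate animals, so p-values measure only the spread between these samples. No 2 libraries agreed within sampling noise (chi-square per gene at least 50.7).

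The test was edgeR 4.0.16 (R 4.3.3), quasi-likelihood with robust dispersion, TMM scaling and the default expression filter, over all genes, tested on simulated data. Alternatives were median-of-ratios scaling, library totals, a looser and a stricter filter (any count, or 10 in each library), DESeq2 1.42.0, limma-voom with sample quality weights (limma 3.58.1), replicate blocks, a rod share covariate, a Y-linked covariate and each library left out. Ratios were compared by exact permutation. Coordinates and exon lengths are from GENCODE M21, promoters from RefSeq.

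The 10 genes and all lists were chosen with earlier results of these data known. All 10 genes are named. A gene of the wider mitophagy list is not reported here. From each wider list the genes with the 3 smallest p-values in each direction under an unadjusted 0.05, or else the single smallest, are named.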

Additional observations from a re-analysis of the deposited data

How the results depend on the processing

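Of the 10 genes, Pink1, Bnip3 and Bnip3l kept their sign in all 17 alternative fits. The adjusted p of Pink1 ran from 0.0456 (limma-voom, log2 fold change -1.08) to 0.865 (replicate block by title number, -0.97), and it was 0.0665 in DESeq2. Its log2 fold change lay between -1.31 and -0.82 with each library left out in turn. The count of the 10 genes past the adjusted threshold was 1 with limma-voom and 0 in each other alternative. At an unadjusted p under 0.05 it was 3 with library totals, 2 with DESeq2 and 2 with limma-voom, where 15.9%, 11.7% and 21.7% of all genes lay. With library totals the median of all genes was -0.37, and 11.2% of genes at an unadjusted p under 0.05 were higher, against 44.3% with TMM. Over all genes, 0 passed the adjusted threshold in edgeR as reported, 172 in DESeq2 and 146 in limma-voom, and 1 in edgeR with either replicate block, with the rod share covariate or without AAV-GSTA4 replicate 3.

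Signs turned in these fits. With library totals the log2 fold changes were -0.27 for Mfn2, -0.091 for Opa1, -0.040 for Dnm1l and -0.25 for Fis1. With the rod share covariate they were 0.31 for Mfn1, -0.45 for Dnm1l, -0.60 for Fis1 and 0.40 for Spg7. Fis1 was -0.21 in limma-voom. With each library left out in turn, Mfn2 ran from -0.038 to 0.32, Dnm1l from -0.033 to 0.51, Fis1 from -0.22 to 0.17, Mff from -0.26 to 0.11, Fundc1 from -0.44 to 0.42, the log2 ratio of Fis1 over Mff from -0.022 to 0.18 and that of Dnm1l over Opa1 from -0.30 to 0.38. The causes were not tested.

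Same-numbered libraries did not deviate together (correlations of -0.089, 3.3e-05 and 0.0090 by title), so the numbers are not taken to pair animals. By title number no library correlated best with the library of its own number. By library name number only AAV-GFP replicate 2 and AAV-GSTA4 replicate 3 did, at 0.0146. With a replicate block by title number, Fis1 was -0.0043 and Fundc1 0.080. In that fit 0 genes of either wider list were under 0.05 unadjusted, beside 5.63% of all genes. By library name number Fis1 was -0.10, Fundc1 0.070, and each wider list had 1 such gene, beside 7.62% of all genes. The wider mitophagy list had 5 such genes with the rod share covariate, beside 12.8% of all genes. It had 1 with no filter, with library totals or with the Y-linked covariate, beside 10.0%, 15.9% and 9.84%. With 1 library left out it had 0 to 4, and the wider dynamics list 2 to 6, beside 6.88% to 12.7% of all genes. The small number of libraries, 3 against 4, limits the precision of every value.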
